A study of Mus musculus with 8 samples.

Results

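The insulin and insulin-like growth factor (IGF) signalling genes examined in the medial prefrontal cortex (mPFC) were 10 of the 35019 genes named on the array. They are the ligands Igf1 and Igf2, the receptors Insr, Igf1r and Igf2r, the adaptors Irs1 and Irs2, the binding proteins Igfbp2 and Igfbp5, and the transcription factor Foxo1. The rule that picked them used gene symbols and no measured value, although earlier results of these data were known when the list was drawn up. Their probes were those on the array with that gene name, 19 of 55681. All 19 probes were well above background on all 8 arrays, so every member was measured in every animal.

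RNA came from the mPFC of 8 adult male mice of the inbred C3H/HeN strain, with 1 single-colour Agilent array per mouse. In the maternal separation (MS) group of 4, the pups spent part of every day, postnatal days 2 to 14, apart from a dam that was herself stressed unpredictably, and the 4 control mice stayed with undisturbed dams. All were weaned at postnatal day 21 into group cages, worked in adulthood for a palatable milk reward in operant chambers and, per the methods of the study, were deprived of food before they were killed. Animals are named by group and label number, as in control 8.4, and a level is the log2 signal of a probe minus the 75th percentile of its array, so that a step of 1 is a doubling. Where no number is given with a value, controls follow each other as 6.2, 8.2, 8.4 and 8.5, and MS mice as 5.3, 7.1, 7.2 and 7.6.

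Insulin, IGF1 and IGF2 bind tyrosine kinase receptors at the cell surface, and the activated receptor phosphorylates insulin receptor substrate proteins, which recruit PI3K and switch on AKT. AKT promotes growth and protein synthesis through mTOR and keeps FOXO transcription factors out of the nucleus, so that fasting, which lowers insulin, allows FOXO target genes to be transcribed. In brain the pathway is known for its parts in neuronal survival, synaptic plasticity and feeding, and IGF binding proteins limit or prolong the access of the ligands to their receptor.

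Before the members are described, some arrays have to be set apart. Marker genes were summarised per array as the mean deviation of the log2 level from the mean of the 8 arrays. Control 8.4 stood at 1.21 for the 12 markers of striatal projection neurons (-0.272 to -0.0685 in the others) and at -0.551 for the 8 markers of cortical projection neurons (-0.0201 to 0.237 in the others). The score of the 9 tested olfactory bulb markers was 2.29 in control 8.4, then 1.24 (MS 7.6) and 0.822 (control 8.5), and -0.994 to -0.703 elsewhere. Control 8.4 was also highest for choroid plexus (0.763), interneuron (0.45), oligodendrocyte (0.355) and astrocyte (0.249) markers, with the other arrays between -0.27 and 0.0635, -0.184 and 0.189, -0.198 and 0.108, and -0.0832 and 0.0218. Microglial, endothelial and mural scores lay between -0.199 and 0.15 on every array, and none of these scores was highest in control 8.4. All 8 cortical markers were well above background on all 8 arrays. So were 11 of 12 striatal and 8 of 9 olfactory bulb markers, so this flag cannot tell the regions apart. Of 34097 tested probes, 18% had their highest value in control 8.4, and for the members it was 5 of 10 genes and 12 of 19 probes. Values without control 8.4 are given beside the genes whose fold change then moved by over 1.5 times or changed sign. Leaving out other arrays moved fold changes too, as given further below. The part of tissue composition in any difference was not tested, and in bulk tissue fewer cells of a type and less RNA per cell cannot be told apart.

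No member passed the test between MS and control. In limma with Benjamini-Hochberg adjustment, 0 of the 34097 probes tested passed an adjusted p of 0.05 (0%), and the adjusted p of every member was 0.9996. At the unadjusted threshold the count was 816 probes (2.39%), and 1 of the 10 members, Igfbp5, was among them, on the lower side in MS, where 1.21% of all probes were. The groups did not overlap at 491 probes (1.44%), of which 0 belonged to a member. By sign alone, 3 members were higher and 7 lower in MS, where 45.4% of all tested probes were lower, with a median log2 fold change of -0.0715, against 0.0131 over all tested probes. Exact permutation p values of the members, over 70 labellings with a smallest possible p of 0.0286, ran from 0.0571 to 0.83. The limma p weighs a group difference against the variation between these 8 animals, with variances partly shared over all tested probes. The permutation p ranks the difference among the labellings. A p that misses the threshold does not show that the groups were alike. Both kinds of p also take the animals as independent. The study assigned litters to MS or control, and the labels do not say which litter each animal came from.

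**Figure D1:**
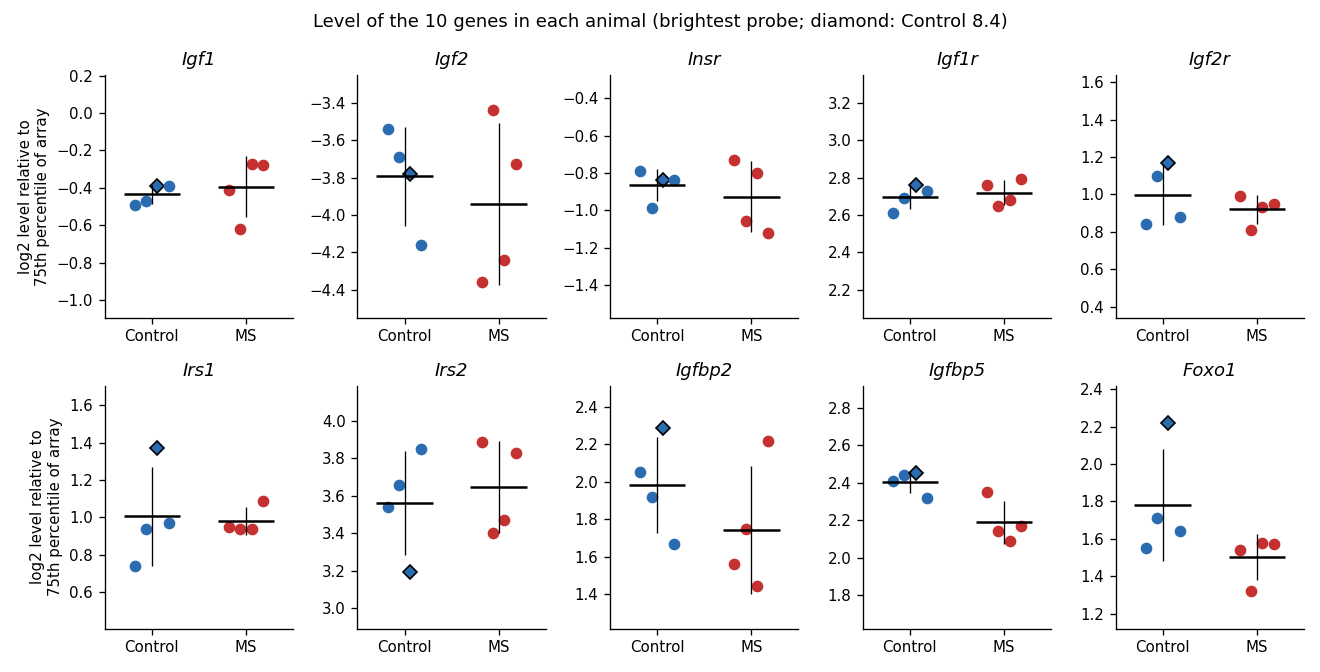
Each panel shows 1 gene at its brightest probe, with the log2 level relative to the 75th percentile of the array on the y axis, drawn over the same span in every panel, with points for single animals (blue control, red MS, diamond control 8.4), a bar at the group mean and a line of 1 SD either side (n = 4). The control and MS points overlap for all 10 genes, and Igf1r shows the narrowest spread.

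**Figure D2:**
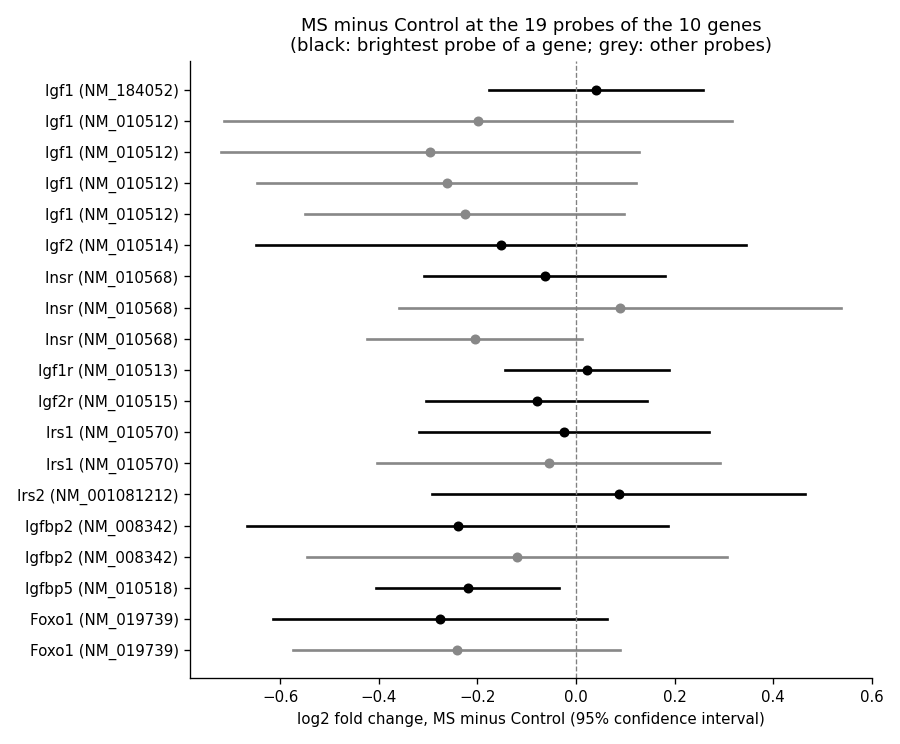
Fold change on the log2 scale, MS minus control, at the 19 probes of the 10 genes, with 95% confidence intervals from limma on the x axis, black for the brightest probe of a gene and grey for the others. Only the interval of Igfbp5 lies wholly below 0, and the 4 lower Igf1 probes sit on the other side of 0 from the brightest one.

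Igf1, the growth factor made in the brain by neurons and glia, was read by 5 probes that did not tell the same story. The brightest carries the RefSeq accession NM_184052 and the other 4 NM_010512. Their positions on build mm9, plus strand, are chr10:87378456-87378515 for the NM_184052 probe, and chr10:87393561-87393620 and chr10:87393581-87393640 for a pair of NM_010512 probes that overlap by 40 of their 60 bases. Another NM_010512 probe lies at chr10:87399581-87399640 and the last at chr10:87395924-87395983. The files give no exon or UTR annotation, so which part of the transcript each probe reads was not analysed. Stretches of 30 bases from 4 of the probes are shown to identify what was measured, with capitals marking bases that the overlapping pair share.
NM_184052 probe, bases 1 to 30: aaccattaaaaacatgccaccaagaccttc
NM_010512 probe, first of the overlapping pair, bases 11 to 40: aacaataataAGTCCAATAACATTACAAAG
NM_010512 probe, second of the overlapping pair, bases 1 to 30: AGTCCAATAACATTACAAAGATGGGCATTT
NM_010512 probe, farthest downstream, bases 1 to 30: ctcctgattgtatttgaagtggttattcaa

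At the NM_184052 probe the Igf1 level was -0.49, -0.47, -0.39 and -0.39 in controls 6.2, 8.2, 8.4 and 8.5, and -0.41, -0.62, -0.27 and -0.28 in MS 5.3, 7.1, 7.2 and 7.6. The controls lay close together and within the range of the MS mice, whose highest and lowest values, in MS 7.2 and MS 7.1, enclosed them. MS minus control was 0.04 on the log2 scale, and the 95% confidence interval ran from -0.18 to 0.26.

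The 4 NM_010512 probes gave log2 fold changes of -0.20, -0.30, -0.26 and -0.23, and each was highest in control 8.4. At the probe farthest downstream, control 8.4 stood at -0.59 and the other controls at -1.52, -1.36 and -1.76, with the MS mice between -1.59 and -1.29. A single array therefore lay 0.77 above the next control at this probe, while at the NM_184052 probe the same array was level with its neighbours. Without control 8.4 the fold change at the probe farthest downstream was 0.0403, a change of sign, and the other 3 NM_010512 probes gave -0.136, -0.0865 and -0.115. Averaged over all 5 probes the fold change of Igf1 was -0.189, opposite in sign to that of the brightest probe, and -0.0483 without control 8.4.

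Profiles of the probes across the 8 arrays, each centred on its own mean, were compared by their root mean square (RMS) difference. It was 0.112 to 0.208 among the NM_010512 probes, with 0.116 for the overlapping pair, and 0.246 to 0.342 between the NM_184052 probe and any of them. Differences of that size were also seen between probes that share an accession. They were 0.162 to 0.348 among the Insr probes and 0.284 for the Irs1 pair. Within an array, the mean of the other 4 Igf1 probes was subtracted from the NM_184052 level. The result averaged 2.075 ± 0.32 in the 4 controls, with 1.6 in control 8.4, and 2.361 ± 0.217 in the 4 MS mice (SD). The groups thus differed by less than 1 SD of the controls, which includes the low value of control 8.4, but by more than 1 SD of the MS mice. This difference was not tested. A gap between probes of different sequence is no measure of how abundant each transcript is, and only its variation between arrays can be read.

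**Figure D3:**
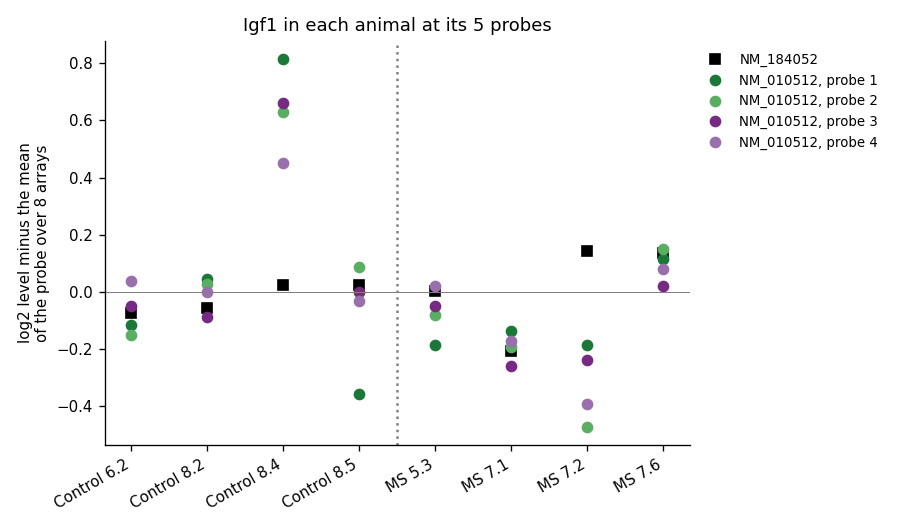
Igf1 level of each animal at its 5 probes, as the log2 level minus the mean of that probe over the 8 arrays, with the NM_184052 probe as black squares and the NM_010512 probes as circles. In control 8.4 the 4 circles stand well above the square, and in MS 7.2 they stand below it.

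Igf2, the imprinted fetal growth factor that the adult brain makes chiefly in meninges and choroid plexus, had 1 probe, on the minus strand at chr7:149839661-149839720 (mm9). Its first 30 bases are shown because this probe had the widest range of any brightest member probe.
Igf2 probe, bases 1 to 30: atcaaattatgtggtaattctgcaatgtag
The level was -3.54, -3.69, -3.78 and -4.16 in controls 6.2, 8.2, 8.4 and 8.5, and -4.36, -3.44, -4.24 and -3.73 in MS 5.3, 7.1, 7.2 and 7.6. The 3 lowest arrays were MS 5.3, MS 7.2 and control 8.5, and the highest was MS 7.1, so the split ran across the groups. For Igf2 the log2 fold change was -0.15 (standard error 0.219, interval -0.65 to 0.35). This was the dimmest of the brightest member probes, and its value depended on how background was handled. With another background correction (normexp, listed below) it was -0.00466 (standard error 0.124). In the normalised values of the authors it was -0.0107, and with quantile or median scaling -0.13.

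The 14 meningeal fibroblast markers were all well above background on all 8 arrays. Their mean score was lowest in the same 3 arrays as Igf2. It was below 0 there, at -1.32 in MS 5.3, -0.93 in control 8.5 and -0.563 in MS 7.2. In the other 5 arrays it was 0.339 to 0.74, and their order by score differed from their order by Igf2. Each of the 14 had a lower mean in MS, with a median log2 fold change of -0.267 and scores of -0.93 to 0.588 in controls and -1.32 to 0.74 in MS mice. The choroid plexus score, by contrast, was highest in control 8.4 at 0.763 and between -0.27 and 0.0635 elsewhere. The part of meningeal RNA in the Igf2 values was not tested.

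Insr, the insulin receptor, was read at its brightest probe on the minus strand, chr8:3151667-3151726 (mm9), where it stood at -0.79, -0.99, -0.84 and -0.84 in controls 6.2, 8.2, 8.4 and 8.5, and at -0.73, -1.06, -0.80 and -1.12 in MS 5.3, 7.1, 7.2 and 7.6. MS mice held both the highest and the lowest value, and the log2 fold change was -0.06 (interval -0.31 to 0.18). Of the other Insr probes 1 gave 0.09 and 1 gave -0.21, the latter with an unadjusted limma p of 0.0615 and an exact permutation p of 0.0571. At that probe control 8.4 was highest at -2.72 and MS 7.6 lowest at -3.24, and the groups overlapped. Without control 8.4, the probe at 0.09 gave -0.0262.

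Igf1r, the receptor through which both IGFs signal, was the most even member, at a probe on the plus strand, chr7:75378461-75378520 (mm9). Its level was 2.61, 2.69, 2.76 and 2.73 in controls against 2.76, 2.65, 2.68 and 2.79 in MS mice. The 8 values spanned 0.181, and the pooled SD of 0.0653 lay at percentile 3.76 of all tested probes. Its log2 fold change was 0.02 with an interval of -0.14 to 0.19, which as a ratio of MS over control is 0.905 to 1.14. Without control 8.4 the fold change was 0.0433.

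Igf2r, the mannose 6-phosphate receptor that takes IGF2 to lysosomes, was spotted 10 times on each array. The file places only 11 bases of its probe, chr17:12875253-12875263 (mm9, minus strand). Its level was 0.84, 1.1, 1.17 and 0.88 in controls against 0.99, 0.81, 0.93 and 0.95 in MS mice, so that the MS values lay almost wholly inside the range of the controls. The SD between the 10 spots within an array was 0.0833 to 0.0999, and the SD between animals was 0.165 in controls and 0.0783 in MS mice. The difference between groups was a log2 fold change of -0.08 (interval -0.30 to 0.14), and -0.0215 without control 8.4, its highest array.

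Irs1, a docking protein that links both receptors to PI3K and has its brighter probe at chr1:82229692-82229751 (mm9, minus strand), stood at 0.74, 0.94, 1.37 and 0.97 in controls, and at 0.95, 0.94, 0.94 and 1.09 in MS mice. Control 8.4 was 0.4 above the next control, and 3 of the MS values lay within 0.02 of each other. Its log2 fold change of -0.02 became 0.0967 without control 8.4. A second, dimmer Irs1 probe gave -0.06, with its highest value in control 8.5, and -0.112 without control 8.4.

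Irs2, the related docking protein that is known for its part in insulin action in brain and beta cells, ran the other way in that array. At its probe, chr8:11004490-11004549 (mm9, minus strand), it stood at 3.54, 3.66, 3.19 and 3.85 in controls, and at 3.89, 3.40, 3.47 and 3.83 in MS mice. Control 8.4 was the lowest of all 8 and MS 5.3 the highest. The log2 fold change was 0.09 (interval -0.29 to 0.47) and -0.0362 without control 8.4. The array lowest for Irs2 was also lowest for the cortical projection neuron score, and the array highest for it was highest for that score. Between these extremes the orders differed. Control 8.5 and MS 7.6 came next highest for Irs2, yet their scores of -0.0201 and -0.00389 were the lowest after control 8.4. The part of neuronal composition in this was not tested.

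Igfbp2, a secreted binding protein abundant in developing brain, meninges and glia, had probes at chr1:72898813-72898872 and chr1:72898677-72898736 (mm9, plus strand). The first 30 bases of the brighter one, the first named, are shown to identify the probe behind the values.
Igfbp2 probe, bases 1 to 30: aggagttcccagttttgacacatgtattta
At the brighter probe Igfbp2 was 2.05, 1.92, 2.29 and 1.67 in controls 6.2, 8.2, 8.4 and 8.5, and 1.56, 1.75, 1.44 and 2.22 in MS 5.3, 7.1, 7.2 and 7.6. Only MS 7.6 reached the level of the higher controls, and control 8.5 lay among the lower MS mice. The log2 fold change was -0.24 (interval -0.67 to 0.19), -0.138 without control 8.4 and -0.399 without MS 7.6.

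The second Igfbp2 probe gave -0.12, and -0.00141 without control 8.4, and its profile over the arrays lay within an RMS of 0.067 of the first. The pattern between arrays was therefore shared by both probes, although the fold change of one was double that of the other. The 3 lowest arrays for Igfbp2 were MS 7.2, MS 5.3 and control 8.5, the same 3 that were lowest for Igf2 and for the meningeal score. Genes with the nearest profiles were Tor4a, Il17rc and Clic3, at RMS differences of 0.0836 to 0.1 over 8 arrays. For Igf2 they were F830014O18Rik, Nfatc4 and Uaca, at 0.0837 to 0.12.

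Igfbp5, a binding protein that associates with the extracellular matrix, showed the smallest p of the members. Its probe lies on the minus strand at chr1:72904829-72904888 (mm9), and its first 30 bases are shown for that reason.
Igfbp5 probe, bases 1 to 30: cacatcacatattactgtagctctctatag
Igfbp5 was 2.41, 2.44, 2.45 and 2.32 in controls 6.2, 8.2, 8.4 and 8.5, and 2.35, 2.14, 2.09 and 2.17 in MS 5.3, 7.1, 7.2 and 7.6. The MS mice lay below the controls except for MS 5.3, which stood just above control 8.5.

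The mean Igfbp5 level was 2.407 ± 0.0571 (SD, n = 4) in controls and 2.187 ± 0.112 (SD, n = 4) in the MS group, a log2 fold change of -0.22 (standard error 0.0816, interval -0.41 to -0.03). As a ratio of MS over control this is 0.859, with an interval of 0.755 to 0.976. The unadjusted limma p was 0.0252, the adjusted p 0.9996 and the exact permutation p 0.0571, so the difference did not pass the test. It was below 0 in both rows of the slide, at -0.126 and -0.314, with 2 animals of each group in each row. Igfbp5 had the second smallest pooled SD of the members, 0.0892, at percentile 12.1 of tested probes, and leaving out any 1 array left the fold change between -0.273 and -0.187. The unadjusted limma p of those fits ran from 0.00944 without MS 5.3 to 0.0769 without MS 7.2. Igfbp5 was lowest in MS 7.2, MS 7.1 and MS 7.6, whose meningeal scores were -0.563, 0.575 and 0.74. It was highest in control 8.4, with a score of 0.588. The part of meningeal RNA in the Igfbp5 values was not tested.

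Foxo1, the transcription factor that AKT holds in the cytoplasm, gave the largest fold change of the brightest probes. Its brighter probe, at chr3:52150183-52150242 (mm9, plus strand), is shown by its first 30 bases as the sequence behind that value.
Foxo1 probe, bases 1 to 30: ttcggaatgacctcatggatggagatacct
Foxo1 was 1.55, 1.71, 2.22 and 1.64 in controls 6.2, 8.2, 8.4 and 8.5, and 1.54, 1.32, 1.58 and 1.57 in MS 5.3, 7.1, 7.2 and 7.6. Control 8.4 stood 0.512 above the next control, MS 7.1 was lowest, and the other 6 arrays lay between 1.54 and 1.71.

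The log2 fold change of Foxo1 was -0.28 (interval -0.62 to 0.06), with an unadjusted limma p of 0.0976 and an exact permutation p of 0.0857. Without control 8.4 it was -0.129, smaller in size by more than 1.5 times. A second probe gave -0.24, or -0.108 without control 8.4, and a profile within an RMS of 0.0687 of the first, so both probes read the same high array. All 12 striatal projection neuron markers were highest in control 8.4 as well, 11 of them well above background on all 8 arrays. The same array was highest for 7 of 9 olfactory bulb, 7 of 13 interneuron, 7 of 10 oligodendrocyte, 5 of 10 astrocyte and 3 of 7 choroid plexus markers. The part of these cell types in the Foxo1 difference was not tested. The genes with the nearest profiles were Dbil5 and Dnah8, at RMS differences of 0.0628 and 0.068, after a probe with no gene name. For Irs2 they were Galnt9 and Tmco5, at 0.0755 and 0.0791, and another probe that has no gene name.

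**Figure D4:**
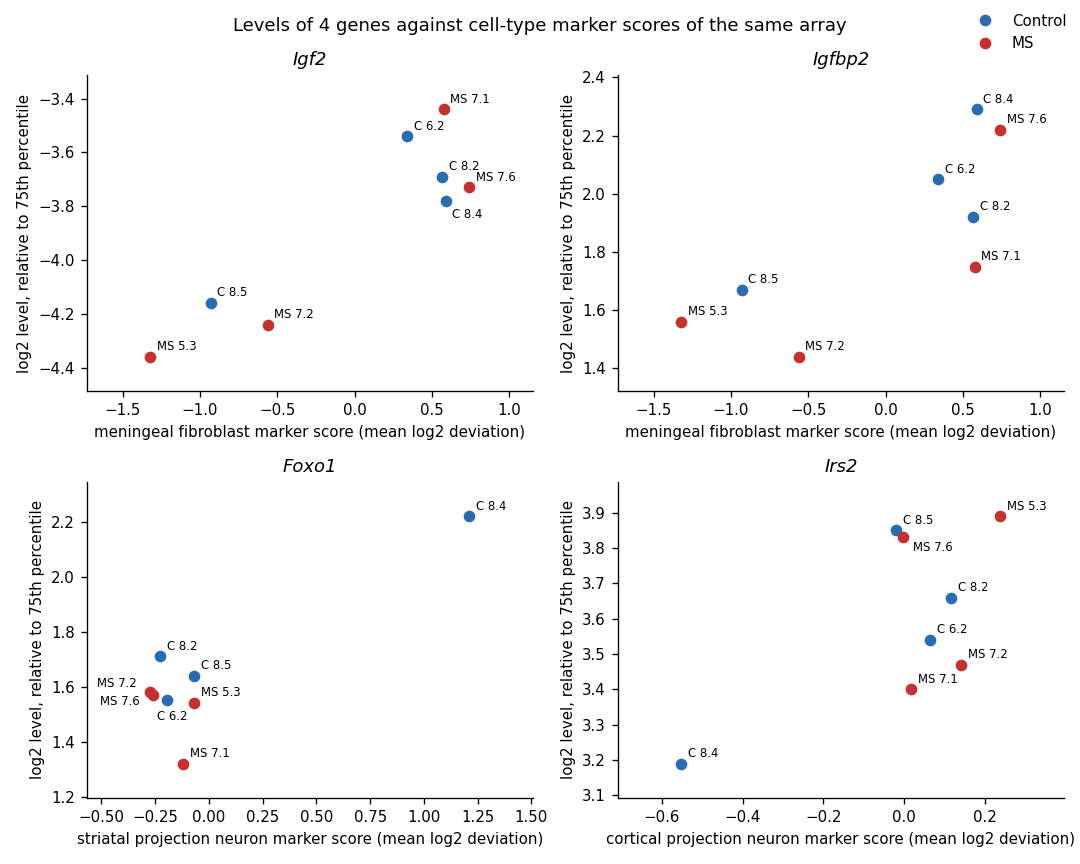
Each point is 1 animal (blue control, red MS), with a marker score of its array on the x axis (mean log2 deviation of the marker genes from the mean of 8 arrays) and the log2 level of 1 gene on the y axis. MS 5.3, MS 7.2 and control 8.5 are low on both axes for Igf2 and Igfbp2, and control 8.4 stands alone for Foxo1 and Irs2.

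Across the members, the spread between arrays was close to that of all genes at the brightest probe, and wider over every probe. The median pooled SD of the 10 genes at their brightest probes was 0.171, against 0.162 for all tested genes read the same way. Over all 19 member probes it was 0.231, against 0.175 over all tested probes. At the brightest probes the widest was Igf2 with 0.358, at percentile 88.1, followed by Igfbp2 with 0.302 and Irs2 with 0.263. Igf2 was also the dimmest of these probes, with mean levels of -3.79 in controls and -3.942 in MS mice. At 303 probes spotted 10 times, the median SD was 0.0651 between spots, and 0.131 between animals after the 10 spots were averaged. The brightest member probes other than those of Igf1 and Igf2r have 1 spot each, so their spot noise was not measured. For Igf1r the pooled SD of 0.0653 was about the size of that spot SD. Without control 8.4, 6 of the 10 fold changes moved by more than 1.5 times or changed sign, with 2 changes of sign, Irs1 and Irs2. Such moves were not particular to that array. Without MS 7.1, for example, Igf1 was at 0.116, Igf1r at 0.0465, Igf2 at -0.318, Insr at -0.0185 and Irs2 at 0.169. Igf2r and Irs1 also moved, to -0.0431 and -0.0104. Foxo1, Igfbp2 and Igfbp5 moved less, to -0.215, -0.242 and -0.204.

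The rest of the pathway was read from 103 other genes grouped by role, of which 102 were on the array and 90 were tested at their brightest probe. None passed the adjusted threshold in limma (0 of 90), and 1 had an unadjusted p under 0.05. Only Lrp1 had groups that did not overlap, where 0.856% of all probes had every MS value above every control. Of the 90, 1 gene, Trim63, passed the filter on dim probes through the controls alone, while the probes of the other 89 exceeded background on each of the 8 arrays. By sign, 54 of these 89 were higher and 35 lower in MS, with log2 fold changes of -0.458 to 0.207 and a median of 0.0202, beside 0.0131 over all probes tested. Without control 8.4, 20 of the 32 pathway genes named below moved by more than 1.5 times or changed sign. For the other arrays this count was not made, but named genes moved without them too. Cat went from -0.181 to -0.0491 without control 8.5. Map2k2 turned from -0.0269 to 0.00717 without control 6.2, 0.00265 without control 8.5 and 0.0388 without MS 7.6.

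Among 3 tested insulin family ligands, 2 were higher and 1 lower in MS, at -0.09 for Ins2 and within 0.01 of 0 for Insl5 and Insl6. Without control 8.4 they were at -0.128, -0.057 and 0.205. All 3 tested receptor relatives were higher in MS by sign. Lrp1, an endocytic receptor, stood at 3.41, 3.38, 3.12 and 3.44 in controls, and at 3.45, 3.45, 3.47 and 3.44 in MS mice, a log2 fold change of 0.12. The MS values lay above the controls by a narrow margin, with control 8.4 far below, and without it the fold change was 0.0444. A second Lrp1 probe gave -0.24, and the mean over both was -0.0626. Sorl1, a sorting receptor, gave 0.10.

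Of 7 tested binding proteins and proteases, 4 were higher and 3 lower. Htra1, a secreted serine protease that cleaves IGF binding proteins, gave 0.17, and Ide, the insulin-degrading enzyme, 0.09. Igfbp4 gave -0.10, and Pappa, the protease that frees IGF from Igfbp4, gave -0.45 (standard error 0.303) with its highest value in control 8.4. Without that array Igfbp4 was at -0.163 and Pappa at -0.251. Among 13 adaptors, 6 were higher and 7 lower, with Dok5 at 0.17, Shc3 at 0.14, Sh2b2 at -0.11 and Sh2b1 at -0.06. Without control 8.4, Dok5 was at 0.00813, Shc3 at -0.0357, Sh2b2 at -0.072 and Sh2b1 at -0.0302.

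The 10 inhibitors of receptor signalling were split into 4 higher and 6 lower. Enpp1, an ectoenzyme that binds the insulin receptor, gave -0.46, and Trib3, a pseudokinase that binds AKT, gave -0.21. Both were highest in control 8.4, and without it they were at -0.0944 and -0.0106. The phosphatases Ptpn1 and Ptprf gave 0.07 and 0.08, and Ptprf -0.0372 without control 8.4.

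The PI3K and AKT group had 13 of 16 genes higher in MS and 3 lower, with a median of 0.0602 and no gene under an unadjusted p of 0.05. The catalytic subunits Pik3cd and Pik3cb gave 0.20 (unadjusted limma p 0.0803) and 0.16 (unadjusted limma p 0.0857). The regulatory subunit Pik3r3 and the AKT phosphatase Phlpp1 each gave -0.05. Without control 8.4, Pik3cd was at 0.127, Pik3r3 at 1.52e-05 and Phlpp1 at -0.000208. In the TSC and mTOR group, 9 of 13 were higher and 4 lower, with Akt1s1, an mTORC1 inhibitor, at 0.18 and the S6 kinase gene Rps6kb2 at 0.12. Eif4ebp1, the translation repressor that mTORC1 phosphorylates and inhibits, gave -0.08. Without control 8.4 these were at 0.101, 0.0615 and -0.159.

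Rictor, the defining subunit of mTORC2, which phosphorylates AKT, had the smallest p of the pathway list. It was 0.72, 0.54, 0.79 and 0.87 in controls 6.2, 8.2, 8.4 and 8.5, and 0.69, 0.09, 0.46 and 0.35 in MS 5.3, 7.1, 7.2 and 7.6. All MS mice but MS 5.3 lay below all the controls. The log2 fold change was -0.33 (standard error 0.134), with an unadjusted limma p of 0.0355 and an adjusted p of 0.9996, and -0.231 without MS 7.1.

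In the RAS and ERK branch, 5 of 9 genes were higher and 4 lower, with Nras at 0.17, Map2k1 at 0.13 and Map2k2 at -0.03, or -0.096 without control 8.4. FOXO factors and their known targets that were well above background on all 8 arrays were split into 8 higher and 7 lower, with a median of 0.0033. Foxo3, a close relative of Foxo1, gave 0.21, Bnip3, a mitophagy receptor, 0.19, and catalase (Cat) -0.18. For Trim63, a ubiquitin ligase known from muscle, the probe was well above background in all 4 controls and in 2 of the 4 MS mice, and no fold change is given.

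**Figure D5:**
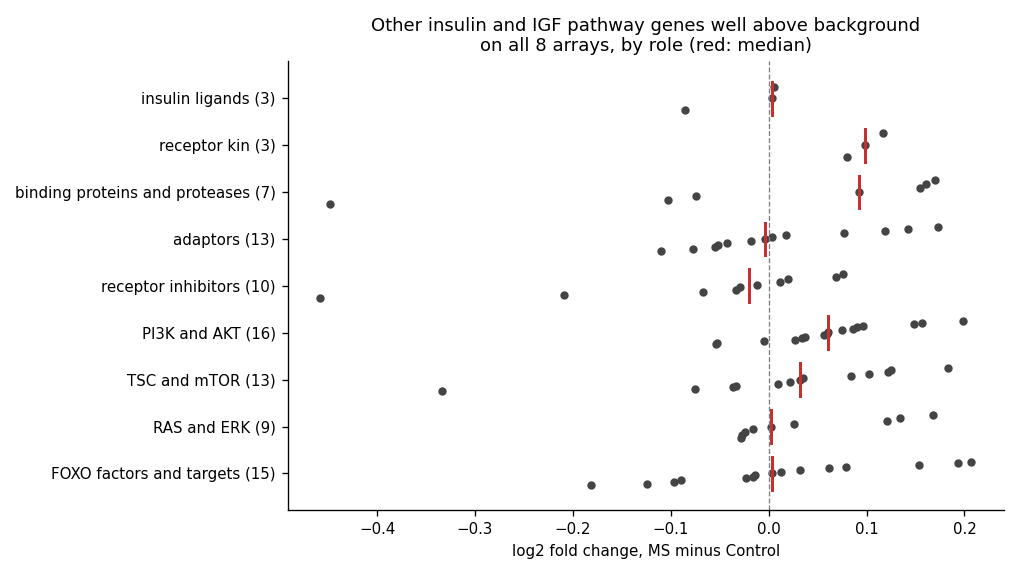
Log2 fold change (MS minus control) on the x axis for the 89 pathway genes that are no members and were well above background on all 8 arrays, 1 point each, in rows by role with the number of genes in brackets and a red bar at the median. Of the 89 points, 84 lie within 0.2 of 0. The points farthest left are Enpp1 and Pappa, read at dim probes with mean levels of -3.18 and -3.06. With normexp background correction they gave -0.235 and -0.224, and with quantile scaling -0.43 and -0.424.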

How the data were processed

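Total RNA from the mPFC of 8 C3H/HeN males, 4 control and 4 MS, was labelled with Cy3 and hybridised to 8 Agilent mouse arrays on 1 slide with 1 scan, and each slide row held 2 arrays of each group. Groups and animal numbers came from the sample labels. Labels have the form 8.4, and 3 controls share the first number 8 and 3 MS mice the first number 7, with no source used here saying what it stands for. The headers of the files give probe positions on build mm9, and their array design number differs from that in the study's methods.

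The deposited scanner files hold spot intensity values extracted by the authors with Agilent Feature Extraction 10.10.1.1, background-subtracted but not normalised between arrays. Deposited flag columns, used as other values, mark control spots, outlier spots and spots well above background. A deposited table of the whole series holds normalised log2 values of the authors for 34137 probes. Its columns have nearly the same distribution, with medians of 8.532 or 8.533, and each correlated at 0.9999 or above with the scanner values of its own array and at most at 0.9972 with those of another. It served as an alternative, and how its probes were selected is not known from the sources used.

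Of 62976 spots per array, 3671 control spots and spots flagged as outliers were left out, and repeat spots were averaged by probe. The log2 intensity minus the 75th percentile of the array (586.5 to 887.8 before log2) was used. Of the probes, 61.55% to 68.94% were well above background per array, none was saturated, and the number of arrays limits the precision. Testing was limited to the 34097 probes that were well above background in all 4 animals of either group, of which 25 lacked a value on some array. Gene symbols came from RefSeq accessions for 27235 probes, from the symbol for 3581 and from the file alone for 24865. MS was compared with control by limma 3.58.1 (lmFit and eBayes, two-sided, no covariate, Benjamini-Hochberg at 0.05) in R 4.3.3 (data.table at version 1.17.8, statmod 1.5.0), as the study's methods name lmFit and this adjustment, and Python 3.11.15 with matplotlib 3.10.9 drew the figures. The fit was tested on simulated data. Single genes were also compared by exact permutation, two-sided. A gene was read at its brightest tested probe. Probe sequences came from the scanner files.

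Named genes were the 10 members, up to 2 higher and 2 lower genes with the smallest unadjusted p in each pathway role, and the 3 nearest profiles of the 4 members with the widest range. A gene that this rule names is not reported here. The members, the pathway and marker lists and the tests were chosen with earlier results of these data known. Alternatives were normexp background correction (offset 50), quantile and median scaling, the series table, other filters on dim probes, outlier spots kept, the mean over the probes of a gene, slide row as a block, label number as a random block, array weights, and leaving out arrays.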

Additional observations from a re-analysis of the deposited data

Results flagged for a closer look

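In each group of 4 animals, the gap between the most extreme animal and its nearest neighbour was divided by the range of the group and set against Dixon's 95% critical value. Of 102 groups examined, 7 exceeded it, where chance alone gives about 5%. For Igf1, control 8.4 stood apart at 2 NM_010512 probes, at -2.20 where the next control was at -2.86 (gap over range 0.881) and at -3.54 where the next was at -3.95 (0.848). At the Igf1 probe farthest downstream, MS 7.6 was at -1.29 and the next MS mouse at -1.54 (0.837). For Irs1, MS 7.6 was at 1.09 and the next at 0.95 (0.928). For Foxo1, MS 7.1 was at 1.32 and the next at 1.54 (0.861). Among the other pathway genes, Pik3cb was at 0.10 in control 8.5 and next at 0.27 (0.835), and Akt1s1 was at -0.60 in MS 7.1 and next at -0.83 (0.924).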

How the results depend on the processing

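No probe passed the adjusted threshold in limma under any of the alternatives run across all probes, whose smallest adjusted p was 0.4178, with the label number as a random block (consensus correlation -0.222, 3742 probes under an unadjusted p of 0.05 against 816), followed by 0.4996 without control 6.2. The unadjusted count was lowest with normexp (413), and 682 without control 8.4. Of 858 gene values compared, 45 had the opposite sign, 4 of them within a slide row, and 0 was called. Igfbp5, Foxo1, Igfbp2, Igf2 and Igf2r were below 0 in each of 19 alternative fits, with ranges of -0.273 to -0.187, -0.353 to -0.129, -0.401 to -0.138, -0.402 to -0.00466 and -0.134 to -0.0079. Signs turned for Igf1r with normexp (-0.00678) and the series table (-0.0357), for Igf1 (-0.189), Lrp1 (-0.0626) and Map2k2 (0.0905) as the mean over probes, and for Insl5 with normexp (-0.0136), the series table (-0.0242), the random block (-0.0373) and array weights (-0.0246). With array weights they turned for Irs1 (0.0732), Irs2 (-0.00241), Phlpp1 (0.0165) and Ptprf (-0.00764). Without control 8.4, control 8.5 and MS 7.6, an alternative chosen after the marker scores were seen, they turned for Insr (0.0252), Irs1 (0.101), Irs2 (-0.0149), Pik3r3 (0.0777) and Shc3 (-0.02). The cause was not tested.

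Leaving out each array in turn gave both signs for Igf1 (-0.000616 to 0.116), Igf1r (-0.00675 to 0.0465), Insr (-0.13 to 0.00113), Irs1 (-0.111 to 0.0967), Irs2 (-0.0362 to 0.183), Ins2 (-0.164 to 0.00222), Insl5 (-0.082 to 0.0644), Insl6 (-0.167 to 0.205), Map2k2 (-0.096 to 0.0388), Pik3r3 (-0.0913 to 1.52e-05), Ptprf (-0.0372 to 0.169), Sh2b1 (-0.12 to 0.0222) and Shc3 (-0.0357 to 0.222). The median fold change of the members ran from -0.0894 to -0.0308 and their median pooled SD from 0.119 to 0.193. Within a slide row, with 2 animals a group and no test, Irs1 was 0.0875 and -0.136, Igf2r 0.0401 and -0.2, Irs2 -0.0509 and 0.224, and Igf1 -0.0752 and 0.155. No paired analysis was possible because the groups share no animal numbers.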
